A study of Homo sapiens with 8 samples.

Results

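The genes described here encode the ERM proteins (ezrin, radixin and moesin) and proteins that organise microvilli, the finger-like protrusions on the free surface of epithelial cells. The 10 members are EZR, MSN, RDX, PODXL, SLC9A3R1, VIL1, EPS8L1, EPS8L2, ESPN and MYO5C. They were chosen by symbol for the function of their proteins, with earlier results of these data known. All 10 were found among the 57820 genes of the table. RNA was measured in OVCA429, an established human ovarian cancer cell line with epithelial features, in which GRHL2 was depleted. GRHL2 is a transcription factor of epithelial cells, and its loss is studied in epithelial–mesenchymal transition (EMT), in which cells give up junctions and polarity. One group carried a stable short hairpin RNA against luciferase (shLuc, the control) and the other a stable short hairpin RNA against GRHL2 (shGRHL2), both grown with serum and puromycin. The comparison asks how these genes differ in level between the lines, and it rests on 1 line and 1 hairpin against GRHL2.

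The labels give 4 samples per group, named as replicates 1 to 4. Their descriptions end in the same numbered suffixes in both groups, written as sequencing lanes often are, and the samples of a group differed little. The median coefficient of variation of genes at 100 FPKM or more (fragments relative to transcript length and sequencing depth) was 2.72% over 763 genes in shLuc and 2.79% over 656 genes in shGRHL2. Each group was therefore taken as 1 library sequenced in 4 runs, every SD below is the spread between runs, and no p-value is given. Any difference between the libraries has no replicate check between separate cultures. The runs held about 9260000 to 9640000 fragments in shLuc and 10000000 to 10280000 in shGRHL2, as estimated from the steps of low values.

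GRHL2 itself read 31.5, 38.69, 33.35 and 31.98 FPKM across the runs of shLuc and 0.13, 0.15, 1.17 and 0.1 across those of shGRHL2. Its runs did not overlap, and run 3 of shGRHL2 was the highest of the depleted ones. CDH1 (E-cadherin, the adherens junction cadherin) went from 50.5 ± 1.36 FPKM in shLuc to 0.312 ± 0.0922 in shGRHL2, and VIM (vimentin, a mesenchymal intermediate filament) was at 158 ± 1.67 and 1383 ± 10.5 (SD, n = 4 runs). Of 6 epithelial markers all reached 1 FPKM in at least 1 library. Lower by 2-fold or more were 4, CDH1, EPCAM, and the keratin genes KRT8 and KRT18, against 7.24% of all genes at that level. The last 3 had differences of -3.02, -1.41 and -1.53 on the log2(FPKM + 1) scale. CDH1 reached 1 FPKM only in shLuc, so it could not have been called higher. KRT7 lay within the limit, and so did PAX8, which was higher at 122 ± 2.86 FPKM in shGRHL2 against 69.8 ± 3.605 in shLuc. The summed level of the list, most of it keratin, was 4111 to 4182 FPKM in shLuc and 1653 to 1706 in shGRHL2. The 2 mitochondrial ribosomal RNAs took 17.0% of fragments in shLuc and 25.4% in shGRHL2, which lowers the FPKM of all other genes in shGRHL2.

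ERM proteins join the plasma membrane to the actin cortex. Their amino-terminal domain binds membrane lipids, receptors and scaffolds, and their carboxy-terminal end binds actin filaments once the folded protein opens. Ezrin is the form best known from epithelia, and moesin is abundant in endothelial cells and leukocytes. Microvilli also need proteins that bundle actin filaments (villin, espin), proteins that cap and cross-link filaments (the EPS8 family) and myosins that carry cargo towards or along the apical membrane. Podocalyxin is a strongly charged membrane sialomucin that ties ERM proteins, through NHERF scaffolds, to the free surface.

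In shGRHL2 the balance of the ERM genes differed from that in shLuc, with less EZR and more MSN, PODXL was 6.53-fold higher, EPS8L1 was 45.6-fold lower and MYO5C was 2.34-fold lower, as ratios of mean FPKM. The villin and espin genes VIL1 and ESPN were near 0 in both libraries. A gene was counted as higher or lower when the group means of log2(FPKM + 1) differed by 1 or more, a 2-fold limit on that scale, and genes were compared where the mean was 1 FPKM or more in at least 1 library. Of the 10 members 8 met that minimum, of which 1 was higher, 2 were lower and 5 lay within the limit. Of the lower ones, EPS8L1 met the minimum only through shLuc, so it could not have been called higher. MYO5C moved inside the limit with equal medians or with the mitochondrial ribosomal RNAs left out of the scaling. Among all 15019 genes compared, 746 (4.97%) were higher and 1087 (7.24%) were lower. The median difference was -0.61 over the 8 members and -0.10 over all genes compared, so that members and all genes alike lay more often below 0 than above it. In all 8 members the runs of the libraries did not overlap, which was also so for 51.6% of all genes compared. With bulk RNA, fewer cells that express a gene and less RNA per cell cannot be told apart.

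**Figure D1:**
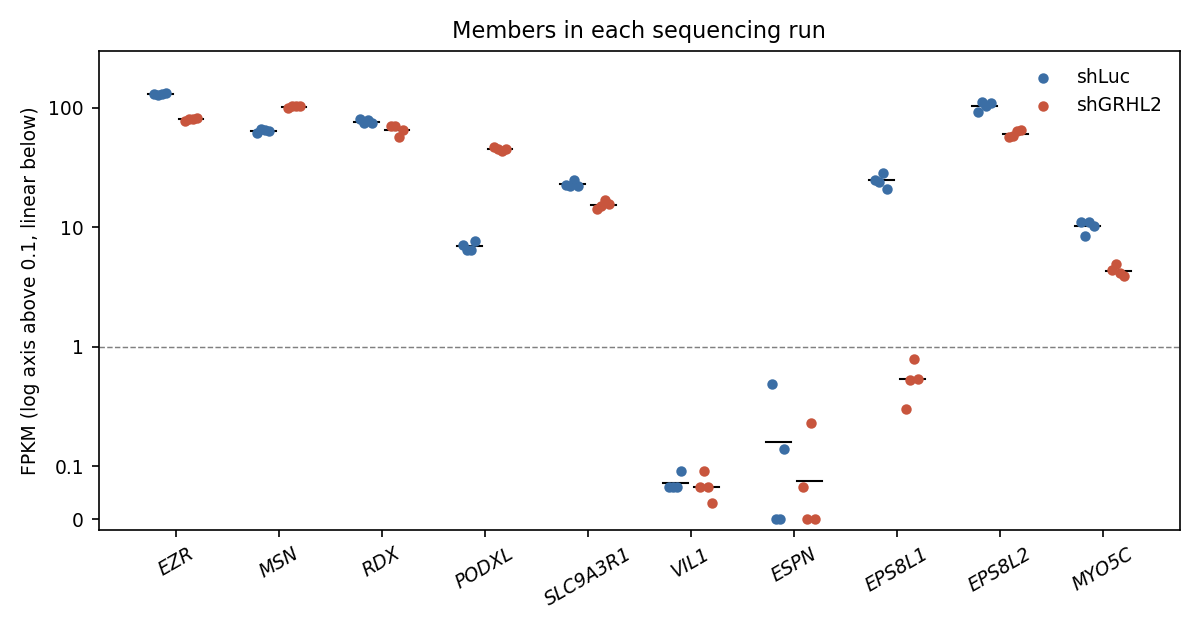
Level of each member in FPKM (vertical axis, logarithmic above 0.1 and linear below) in the 4 runs of shLuc (blue) and of shGRHL2 (red), with a black bar at the mean of the runs and a dashed line at 1 FPKM, the minimum for comparison. PODXL stands higher and EPS8L1 and MYO5C stand lower in shGRHL2, MSN passes above EZR, and VIL1 and ESPN lie below the dashed line in both libraries.

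The direction of the 8 compared members did not depend on the scaling. The other scalings were TPM (each run summed to the same total of transcripts), equal medians of the compared genes, and a scaling without the mitochondrial ribosomal RNAs, and none turned the sign of a member. The split of all calls moved with the scaling: as deposited, genes that were higher made up 40.7% of those past the limit, against 51.4% with the mitochondrial ribosomal RNAs left out.

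EZR, which encodes ezrin, was the most abundant member in shLuc. The shLuc runs read 129.58, 128.27, 129.93 and 132.23 FPKM, and the shGRHL2 runs read 77.21, 81.17, 81.21 and 82.14. Every shGRHL2 run lay below every shLuc run, and the shGRHL2 mean of 80.4 ± 2.19 was 61.9% of the shLuc mean of 130.0 ± 1.65. The difference of -0.69 ± 0.04 on the log2(FPKM + 1) scale stayed within the 2-fold limit. EZR lay at percentile 96.3 of the compared genes in shLuc and at percentile 94.5 in shGRHL2, so it remained among the abundant transcripts. The gene lies on the minus strand at chr6:159186773-159240400 (GRCh37), and EZR-AS1, which runs on the other strand within it, was listed at 0 in all runs.

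MSN, which encodes moesin, differed in the other direction. Its level was 60.97, 65.85, 65.27 and 63.37 FPKM in the shLuc runs, and 98.94, 103.95, 103.33 and 102.77 in the shGRHL2 runs. The shGRHL2 runs were all above the shLuc runs, with means of 63.9 ± 2.20 and 102 ± 2.26 FPKM and a ratio of 1.60. The difference of 0.67 ± 0.06 on the log2(FPKM + 1) scale was also within the 2-fold limit. MSN lay at percentile 91.4 of the compared genes in shLuc and at percentile 95.7 in shGRHL2. It is on the plus strand at chrX:64808257-64961793.

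RDX, which encodes radixin, differed least of the ERM genes. The shLuc runs were at 80.21, 74.12, 78.21 and 73.93 FPKM and the shGRHL2 runs at 69.95, 70.93, 56.83 and 65.05. These runs came close to each other without overlapping, since the highest shGRHL2 run was 70.93 and the lowest shLuc run was 73.93, and run 3 of shGRHL2 was the lowest of all. The difference was -0.22 ± 0.16 and ranged from -0.33 with TPM to -0.08 with the mitochondrial ribosomal RNAs left out. RDX spans chr11:109735021-110167437 on the minus strand, and ZC3H12C overlaps it on the opposite strand, at 21.4 ± 0.467 FPKM in shLuc and 18.99 ± 1.07 in shGRHL2. The sources used here do not say whether the counting used the strand.

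The share of a gene within the summed FPKM of its family does not change with the scaling of a run. Of the sum of the 3 ERM genes, EZR made up 48.1 ± 0.680% in shLuc and 32.4 ± 1.05% in shGRHL2. MSN made up 23.6 ± 0.847% and 41.2 ± 1.15%, a gain of 17.6 percentage points, while the EZR share decreased by 15.7. RDX made up 28.3 ± 1.01% and 26.4 ± 2.2%, and its runs overlapped. The ratio of EZR to MSN was 2.04 ± 0.0824 in shLuc, between 1.95 and 2.13 in single runs, and 0.787 ± 0.00880 in shGRHL2, between 0.780 and 0.799. Thus EZR exceeded MSN in each shLuc run and MSN exceeded EZR in each shGRHL2 run. The sum of the family was 270 ± 2.20 FPKM in shLuc and 248 ± 6.21 in shGRHL2, or 91.8% as deposited, 85.2% in TPM and 101% with the mitochondrial ribosomal RNAs left out, so no direction of the sum can be given. Leukocyte and endothelial cells are known for moesin. Of 6 leukocyte markers 1 reached 1 FPKM and none passed the limit. The 1 was CD68, at 0.880 ± 0.307 FPKM in shLuc and 2.74 ± 0.701 in shGRHL2, through shGRHL2 only. Its runs did not overlap, and its difference of 0.99 lay just inside the limit. The summed level of the list was 1.06 to 2.43 FPKM in shLuc and 2.68 to 4.33 in shGRHL2. The endothelial markers are given with PODXL. The part of such cells or programmes in the MSN level was not tested.

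**Figure D2:**
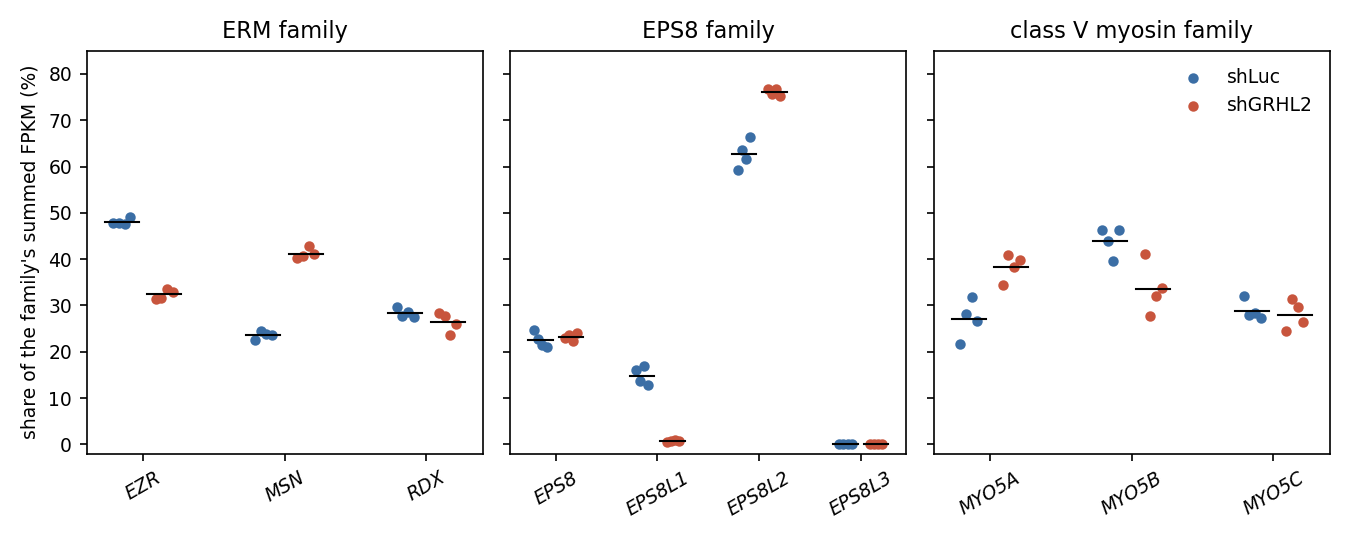
Share of each gene in the summed FPKM of its family (vertical axis, percent) in the 4 runs of shLuc (blue) and shGRHL2 (red), with a black bar at the mean, for the ERM, EPS8 and class V myosin families. The EZR and MSN shares exchange order, the EPS8L1 share goes from 14.9% to 0.670%, and the MYO5C share stays near 28.9% and 28.0%.

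The ERM genes are near relatives, and fragments that match several genes are divided among them. How far their sequences are shared is therefore given here. The coding sequences of EZR and MSN were identical at 74.7% of aligned bases, those of MSN and RDX at 72.0% and those of EZR and RDX at 70.7%, and the longest identical run between any of their transcripts was 32, 20 and 21 bases in the same order. The 69 coding bases printed next lie near the carboxy-terminal end and are shown because they hold the threonine codon whose phosphorylation keeps ERM proteins open. Capitals mark bases identical in all 3 genes, 52 of the 69, and the threonine codon is at bases 10 to 12, counted from 1 at the 5′ end. They lie within 1 coding exon each, at chr6:159187949-159188017 (minus strand), chrX:64959684-64959752 (plus strand) and chr11:110102597-110102665 (minus strand) of GRCh37, read from Gencode v44 transcripts in the direction of the gene.
EZR: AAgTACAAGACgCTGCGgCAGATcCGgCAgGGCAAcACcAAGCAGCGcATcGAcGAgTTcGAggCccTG
MSN: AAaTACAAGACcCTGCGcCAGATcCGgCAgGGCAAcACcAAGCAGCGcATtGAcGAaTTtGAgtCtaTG
RDX: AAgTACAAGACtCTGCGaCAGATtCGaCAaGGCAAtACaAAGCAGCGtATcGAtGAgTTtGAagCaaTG
Most of the lower-case bases fall at the last base of a codon. The processed copies RDXP1, RDXP2, RDXP3 and MSNP1 were at 0.18 FPKM or less in every run, so fragments assigned to them made up little of the signal.

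PODXL, which encodes podocalyxin, had the largest rise among the members. The shLuc runs were at 7.05, 6.44, 6.41 and 7.7 FPKM, and the shGRHL2 runs at 47.13, 44.82, 43.22 and 45.14. No shGRHL2 run was near a shLuc run. The ratio of means, 45.1 ± 1.61 over 6.90 ± 0.609 FPKM, was 6.53, between 5.61 and 7.35 over pairs of single runs, and the difference on the log2(FPKM + 1) scale was 2.55 ± 0.12. It took PODXL from percentile 43.8 to percentile 89.5 of the compared genes. The gene is on the minus strand at chr7:131185021-131242976, and the only gene annotated within its bounds is a ribosomal protein pseudogene at 0.243 ± 0.280 FPKM or below.

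Podocalyxin is made by podocytes and endothelial cells as well as by some carcinomas, and markers of those cells are given here beside it. Of 9 endothelial markers 8 were in the table and 3 reached 1 FPKM, each only through shGRHL2, so that they could not have been other than higher there: TIE1 at 0.723 ± 0.196 and 84.7 ± 1.90 FPKM, CDH5 at 0.0375 ± 0.0568 and 10.8 ± 0.879, and KDR listed at 0 and 1.27 ± 0.159. The summed level of the list was 0.86 to 1.28 FPKM in shLuc and 93.97 to 99.24 in shGRHL2, nearly all of it TIE1 and CDH5, whereas VWF, TEK, CLDN5 and ERG stayed below 0.5 FPKM on average and EMCN was listed at 0. Of 4 podocyte markers SYNPO was higher, at 0.633 ± 0.130 and 5.66 ± 0.419 FPKM, also through shGRHL2 only, while WT1 was listed at 0 in all runs. Of 7 fibroblast markers COL1A1 was higher, at 1.19 ± 0.702 and 3.64 ± 1.01 FPKM. The part of such cells or programmes in the PODXL level was not tested.

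SLC9A3R1 encodes NHERF1 (also called EBP50), the scaffold whose PDZ domains hold podocalyxin and ion transporters and whose tail binds ERM proteins. Its shLuc runs gave 22.54, 21.98, 24.92 and 22.11 FPKM, against 14.25, 14.99, 16.8 and 15.78 in shGRHL2. The runs did not overlap, and the shGRHL2 mean of 15.5 ± 1.09 was 67.5% of the shLuc mean of 22.9 ± 1.38. The difference of -0.54 ± 0.13 on the log2(FPKM + 1) scale lay within the limit, so the scaffold and its ligand PODXL differed in opposite directions. SLC9A3R1 lies at chr17:72744767-72765492 on the plus strand, and SLC9A3R1-AS1 on the other strand was at 3.30 ± 0.875 and 1.96 ± 1.07 FPKM.

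EPS8L1 and EPS8L2 encode relatives of EPS8, which caps the fast-growing end of actin filaments and bundles them at microvillus tips. EPS8L1 gave 24.99, 23.95, 28.61 and 20.97 FPKM in the runs of shLuc, compared with 0.3, 0.53, 0.79 and 0.54 in those of shGRHL2. It was thus expressed in every shLuc run at a level close to that of SLC9A3R1, and no shGRHL2 run reached 1 FPKM. The means were 24.6 ± 3.15 and 0.54 ± 0.200 FPKM, a 45.6-fold lower level, between 26.5-fold and 95.4-fold over pairs of single runs, with a difference of -4.06 ± 0.26 on the log2(FPKM + 1) scale. EPS8L1 had the largest difference of any member, and it passed the minimum only through shLuc. The table gives it an effective length of 442 bases against a coding sequence of 2172 bases. At that length its FPKM corresponds to about 411 fragments in all shLuc runs together and 9.63 in all shGRHL2 runs. Whether the length fits the transcripts present in each run is not known, so these fragment numbers may be far off. Its level relative to other genes also depends on the length used. EPS8L1 lies on the plus strand at chr19:55583388-55599291, with no other annotated gene within its bounds.

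EPS8L2 was the second most abundant member in shLuc, at 92.28, 111.01, 104.16 and 109.44 FPKM, against 57.01, 57.56, 63.37 and 65.35 in shGRHL2. The shGRHL2 runs were all lower, at a mean of 60.8 ± 4.17 or 58.4% of the shLuc mean of 104 ± 8.48. Its difference of -0.77 ± 0.15 was within the limit. EPS8L2 lies on the plus strand at chr11:694438-727727. It overlaps TMEM80 on the same strand, at 7.36 ± 0.241 and 7.89 ± 0.738 FPKM, and DEAF1 on the other strand, at 13.6 ± 1.77 and 13.8 ± 3.30 FPKM, and both neighbours were at similar levels in the libraries.

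EPS8 itself, the founding member, had a mean of 37.2 ± 2.34 FPKM in the control and 18.6 ± 1.66 in the depleted line, with a difference of -0.97 just inside the limit, and EPS8L3 was listed at 0 in all runs. The sum of the family was 166 ± 8.12 FPKM in shLuc and 79.9 ± 5.78 in shGRHL2, which is 48.1% as deposited, 44.7% in TPM and 53.2% with the mitochondrial ribosomal RNAs left out. Within that sum EPS8L1 held 14.9 ± 1.98% in shLuc and 0.670 ± 0.228% in shGRHL2, EPS8L2 held 62.7 ± 2.95% and 76.1 ± 0.747%, and EPS8 held 22.4 ± 1.64% and 23.2 ± 0.806% with overlapping runs. The change of the EPS8L1 share, -14.2 percentage points on FPKM, was -3.46 when FPKM was multiplied by effective length, and that of EPS8L2 was 13.4 and 5.66. The second value of each rests on the listed effective lengths, whose fit to each run is not known. The coding sequences of EPS8L1 and EPS8L2 were identical at 65.7% of aligned bases, with a longest shared run of 22 bases.

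MYO5C encodes a class V myosin, an actin motor of secretory and glandular epithelia that carries membrane vesicles. Its level was 11.05, 8.39, 10.95 and 10.16 FPKM in the runs of shLuc, compared with 4.34, 4.92, 4.16 and 3.92 in those of shGRHL2. The runs did not overlap, and the means of 10.1 ± 1.23 and 4.34 ± 0.426 FPKM gave a 2.34-fold lower level. The difference of -1.06 ± 0.20 was past the limit as deposited, but it was -0.96 with equal medians and -0.96 with the mitochondrial ribosomal RNAs left out, which ends the call. MYO5C lies on the minus strand at chr15:52484519-52588001, and the lncRNA CERNA1 on the other strand was at 0.390 ± 0.168 and 0.175 ± 0.159 FPKM.

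Of the related myosins 1 passed the limit. MYO5B, a motor of apical recycling endosomes, went from 15.4 ± 1.70 FPKM in the control to 5.27 ± 1.35 in shGRHL2, a 2.93-fold lower level past the limit. MYO5A, the form best known from neurons and melanocytes, was at 9.54 ± 2.08 and 5.95 ± 0.445 FPKM, within the limit. The sum of the class V genes was 35.1 ± 3.75 and 15.6 ± 1.57 FPKM, or 44.3%, and stayed below 50% under the scalings tried, at 41.1% in TPM and 49.0% with the mitochondrial ribosomal RNAs left out. The MYO5C share of it was 28.9 ± 2.11% and 28.0 ± 3.11% with overlapping runs, a change of -0.88 percentage points that was -4.77 over relative fragments (FPKM multiplied by effective length), and the MYO5A share was 27.1 ± 4.23% and 38.4 ± 2.88% with runs that did not overlap.

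VIL1 and ESPN, the bundling proteins of intestinal and sensory microvilli, were not compared because both libraries were below the minimum. VIL1 had 0.06, 0.06, 0.06 and 0.09 FPKM in the runs of shLuc and 0.06, 0.09, 0.06 and 0.03 in those of shGRHL2, which is about 5.29 and 5.03 fragments in all runs together. ESPN was at 0.49, 0, 0 and 0.14 FPKM and at 0.06, 0, 0.23 and 0, with overlapping runs in both genes. At this depth no difference could be seen in either gene. ESPN shares an identical run of 140 bases with its copy ESPNP, which was at 0.06 FPKM or less, so fragments of the pair could be assigned to either. VIL1 lies at chr2:219283844-219318018 and ESPN at chr1:6484836-6521427, both on the plus strand and both overlapped by an expressed gene on the other strand (USP37 at 8.47 ± 0.899 and 7.48 ± 1.75 FPKM, and TNFRSF25 at 2.93 ± 0.951 and 5.07 ± 0.543).

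Ranked by FPKM, which is a level per length, the members ran in shLuc from EZR over EPS8L2, RDX, MSN, EPS8L1, SLC9A3R1, MYO5C and PODXL to ESPN and VIL1. Only EPS8L1 with SLC9A3R1 and ESPN with VIL1 were neighbours whose runs overlapped. In shGRHL2 the order was MSN, EZR, RDX, EPS8L2, PODXL, SLC9A3R1, MYO5C, EPS8L1, ESPN and VIL1, where RDX overlapped EPS8L2 and ESPN overlapped VIL1. MSN thus went from the fourth place to the first, PODXL from the eighth to the fifth and EPS8L1 from the fifth to the eighth. EZR, EPS8L1, EPS8L2 and MYO5C, 4 of the 10 members, are among the 197 epithelial EMT signature genes listed with the study, which are a part of the full signature, so the absence of the other members from that list does not show that they are outside it. All 4 had a negative difference, as did RDX and SLC9A3R1.

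The start regions of EPS8L1 and MYO5C, the members past the limit downwards, are shown because they were the ones with a CAGGTG hexamer, the core that ZEB and SNAIL repressors of epithelial genes bind. ZEB1, which encodes one of these repressors, had 0.495 ± 0.204 FPKM in the control and 12.9 ± 0.967 in the depleted line. Windows from 250 bases before to 50 bases after the start were taken from RefSeq (GRCh38.p14), with 10 windows for 7 members, and PODXL, VIL1 and ESPN were not matched. CAGGTG or its complement CACCTG was in 2 of the 10 windows, in capitals here, 76 bases before the start in EPS8L1 (chr19:55075619-55075918, plus strand) and 90 bases before it in MYO5C (chr15:52295755-52296054, minus strand), each read in the direction of the gene.
EPS8L1: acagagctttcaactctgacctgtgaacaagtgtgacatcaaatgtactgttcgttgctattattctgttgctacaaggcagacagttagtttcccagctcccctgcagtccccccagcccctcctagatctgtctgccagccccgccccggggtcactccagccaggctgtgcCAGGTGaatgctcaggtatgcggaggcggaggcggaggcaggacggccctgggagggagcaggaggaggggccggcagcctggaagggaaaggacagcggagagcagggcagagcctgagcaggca
MYO5C: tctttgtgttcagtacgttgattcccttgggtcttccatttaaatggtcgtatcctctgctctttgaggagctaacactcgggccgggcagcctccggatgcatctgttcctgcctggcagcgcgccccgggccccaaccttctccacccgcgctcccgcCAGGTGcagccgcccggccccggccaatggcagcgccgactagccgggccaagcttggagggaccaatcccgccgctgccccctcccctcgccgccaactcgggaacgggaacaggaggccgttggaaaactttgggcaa
The hexamer was found on either strand in 20.6% of all 35116 RefSeq windows, so a match is common. The Grainyhead core AACNNGTT was in 3.52% of all windows and in 0 of the 10, and its form AACCGGTT, which the first motif includes, in 0.134% and in 0. The windows of EZR, MSN, RDX, SLC9A3R1 and EPS8L2 held no CAGGTG or CACCTG. Binding was not measured in these data, and a part of ZEB1 in the level of any member was not tested. EPS8L1 has another start window, at chr19:55080131-55080430, without any of the motifs.

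A wider list of 54 ERM and microvillus genes, grouped by role and also chosen with earlier results of these data known, gave a broader view. Of these, 40 reached 1 FPKM, 4 were higher, 8 were lower and 28 lay within the limit. Among those past the limit, CLIC5 and COBL reached the minimum only in shLuc, and ICAM2 and MYO7B only in shGRHL2. The direction of these calls was thus fixed by the minimum. Among all genes compared, the shares were the 4.97% higher and 7.24% lower given before. The median difference was -0.21, below that of -0.10 for all genes compared and above that of -0.61 for the members. In 31 of the 40 the runs did not overlap, against 51.6% of all genes compared.

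**Figure D3:**
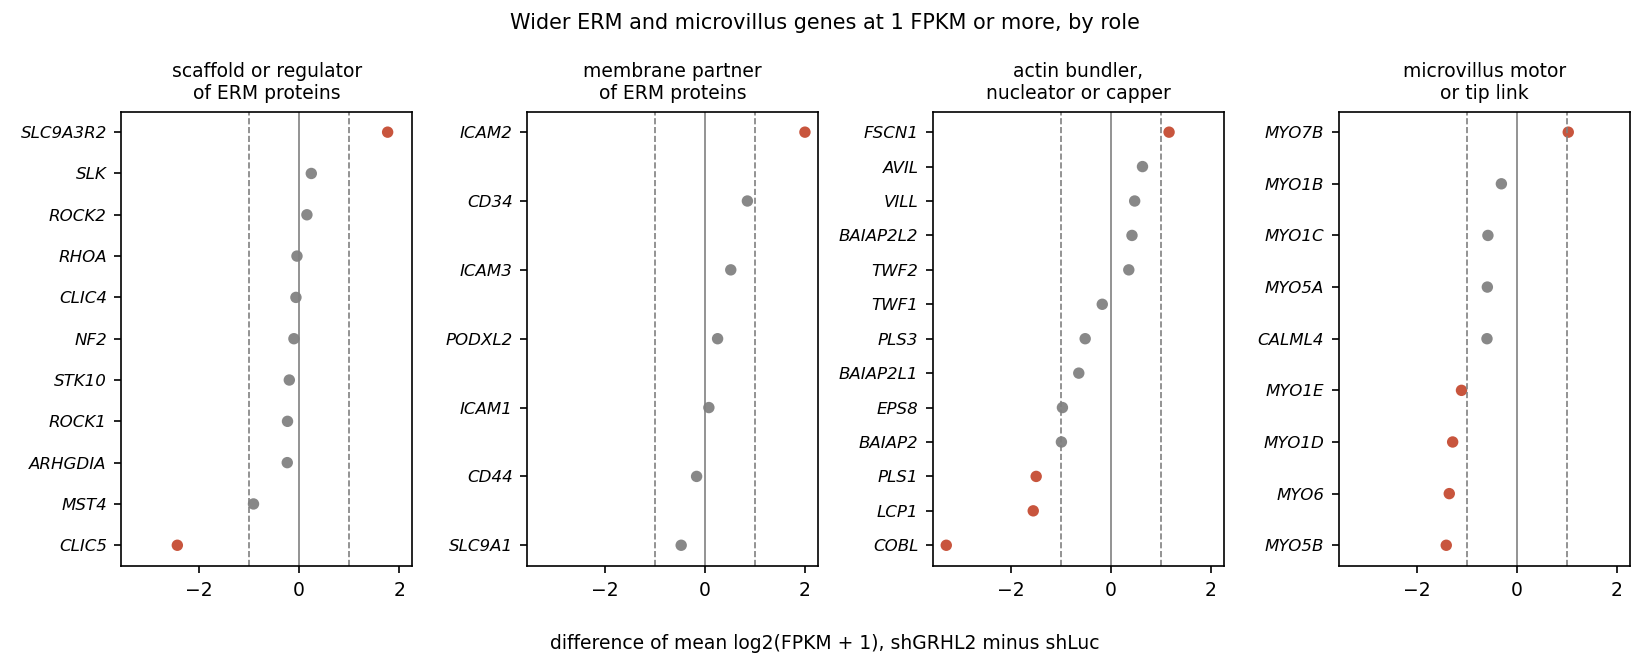
Difference of mean log2(FPKM + 1) between shGRHL2 and shLuc (horizontal axis, positive where shGRHL2 was higher) for the 40 compared genes of the wider list in 4 panels by role, with genes past the 2-fold limit (dashed lines) in red and the others in grey. The motor panel holds 4 of the 8 genes that were lower, the actin panel 3, and each panel holds 1 that was higher.

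Among scaffolds and regulators of ERM proteins, 11 of 13 were compared. SLC9A3R2, which encodes NHERF2, a second scaffold for podocalyxin, had runs of 7.9, 8.26, 8.55 and 5.82 FPKM in shLuc and of 25.63, 28.13, 30.76 and 28.42 in shGRHL2. It was 3.70-fold higher, the opposite of its relative SLC9A3R1. CLIC5, which encodes a chloride channel relative that binds ezrin and podocalyxin in the podocyte and the placenta, was at 3.67, 5.49, 4.55 and 4.1 FPKM in shLuc and was at a listed 0 in each run of shGRHL2. It passed the minimum only through shLuc, so it could not have been called higher. The other 9 lay within the limit, among them the kinases SLK, STK10 and ROCK1, the tumour suppressor gene NF2, and MST4 (a kinase that acts on ezrin at the brush border) at -0.91.

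Membrane partners of ERM proteins had a median of 0.25 over the 7 of 11 that were compared. ICAM2, an adhesion molecule of endothelium and platelets, had runs of 0.14, 0.14, 0.95 and 0.28 FPKM in shLuc and of 3.73, 5.41, 4.09 and 4.37 in shGRHL2. It was higher with runs that did not overlap, and it passed the minimum only through shGRHL2, the library in which TIE1 and CDH5 were also high. CD44, the hyaluronan receptor that binds ERM proteins, was at 96.8 ± 5.71 and 86.0 ± 1.75 FPKM and thus remained abundant, and CD34, the sialomucin closest to podocalyxin, was at 0.513 ± 0.196 and 1.74 ± 0.465 FPKM, within the limit at 0.85 but past it with the mitochondrial ribosomal RNAs left out or a pseudocount of 0.1 FPKM.

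Of 15 genes that bundle, nucleate or cap actin, 13 were compared, with a median of -0.51. FSCN1, which encodes fascin, the bundling protein of filopodia, was higher at 53.4 ± 1.65 FPKM in shGRHL2 against 23.2 ± 0.913 in shLuc. PLS1 (fimbrin, a bundling protein of the brush border) was at 22.1 ± 1.75 and 7.20 ± 0.181 FPKM, and LCP1 (L-plastin, its relative of blood cells and many carcinomas) was at 70.2 ± 4.04 and 23.4 ± 2.48. PLS1 was 3.07-fold lower, and LCP1 was at 33.3% of its shLuc mean. COBL, an actin nucleator, was at 10.22, 9.05, 7.95 and 11.1 FPKM in shLuc and at 0, 0, 0.25 and 0.07 in shGRHL2, so that every shGRHL2 run was far below every shLuc run. COBL passed the minimum only through shLuc. BAIAP2, whose product IRSp53 bends the membrane and binds EPS8, was at -0.99, inside the limit by a small margin like EPS8 at -0.97, and both crossed it in TPM.

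The motor and tip-link genes of the microvillus had a median of -0.59 over the 9 of 15 that were compared. Besides MYO5B, 3 motors were lower: MYO6, the motor that moves towards the base of microvilli, at 17.5 ± 0.368 and 6.30 ± 0.381 FPKM, MYO1D at 18.2 ± 2.80 and 7.03 ± 1.86, and MYO1E at 50.5 ± 3.23 and 23.1 ± 3.29. MYO1D and MYO1E are class I myosins that tether membrane to actin. MYO1E lost its call with the mitochondrial ribosomal RNAs left out and without run 4 of shGRHL2. MYO7B, a motor of the tip link, was at 0, 0.03, 0.02 and 0.03 FPKM in shLuc and at 1.97, 0.95, 0.72 and 0.91 in shGRHL2. It passed the minimum only through shGRHL2, where run 1 was the highest. Without that run or in TPM it fell below the minimum. Of the tip-link genes USH1C, ANKS4B and TMIGD1 were listed at 0, and CDHR2 and CDHR5 stayed below 0.4 FPKM in each run. CALML4, a light chain that works with MYO7B in this complex, was at 4.91 ± 0.354 and 2.95 ± 0.605 FPKM, within the limit at -0.59.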

How the data were processed

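Stranded total RNA libraries of OVCA429 cells were sequenced in paired-end mode. The deposited table holds FPKM per gene, which the authors made, per the labels and methods, with bcl2fastq 2.17.1.14, STAR 2.4.2a (genome hg19) and RSEM 1.2.25 (Gencode v19). RSEM divides fragments that match several transcripts or paralogs. The table's effective lengths come from a source that is not given in the sources used here, so depths and fragment numbers are approximate. For genes with 1 transcript, between 88.8% and 91.1% of low values were whole within 0.1 fragment at the depth chosen to give most whole values. For genes with several transcripts, which all 10 members have, only 33.4% to 36.6% were whole. Fragment numbers of the members are therefore less certain. The study's EBSeq needs counts and was not run.

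Means of log2(FPKM + 1) were compared for genes at 1 FPKM or more in at least 1 library, with a limit of 2-fold and no test. The members and lists were chosen with earlier results of these data known. Named genes were all members, genes of the wider list past the limit, family relatives, markers past the limit, and GRHL2, CDH1 and VIM. ZEB1, CD44, CD34, PODXL2, NF2, the ERM kinases, BAIAP2, the tip-link genes, KRT7, PAX8, CD68 and markers at or near 0 were named after their values were seen. Alternatives were a pseudocount of 0.1, TPM, equal medians, mitochondrial ribosomal RNAs left out, other minimums (none, 5 FPKM), a 1.5-fold limit, relative fragments for shares, and each run left out. Protein sequences were not used here, and coding sequences were compared instead. PECAM1 was not used here, and 1 marker is not reported here. Coordinates came from Gencode v44 on GRCh37, a later annotation than the authors'. Promoter windows came from RefSeq (GRCh38.p14). Scripts were tested on simulated data and used Python 3.11.15, numpy 2.4.6, pandas 2.3.3 and biopython 1.88.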

Additional observations from a re-analysis of the deposited data

Results flagged for a closer look

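VIL1 in shLuc was at 0.09 FPKM in run 4 and at 0.06 in the other 3 runs, so 1 run stood apart from the rest by the whole range of the group. Values are rounded to 0.01 FPKM, and VIL1 had about 5.29 fragments in all shLuc runs together. This was 1 of 47 gene and group combinations examined over 24 genes, and chance alone flags about 1 in 20. The 24 genes were the members, the wider list genes past the limit and family relatives. GRHL2 and the markers were not examined, although GRHL2 read 1.17 FPKM in run 3 of shGRHL2 and 0.1 to 0.15 in the other runs of shGRHL2.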

How the results depend on the processing

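The 8 compared members kept their direction under every alternative tried. No paired analysis was possible because the samples of a group counted as runs of 1 library and no test was made. With a 1.5-fold limit, 2 members were higher and 4 lower, 13 genes of the wider list were lower, and 1755 of all genes were higher and 2583 lower. With equal medians or with the mitochondrial ribosomal RNAs left out, 1 member was lower, as MYO5C moved inside the limit. A pseudocount of 0.1 FPKM gave 1324 higher and 1663 lower genes in all, and a minimum of 5 FPKM gave 464 higher genes in all and 2 in the wider list. The change of the MSN share was 19.2 percentage points over relative fragments. The medians of all genes compared were -0.19 in TPM and 0.04 with the mitochondrial ribosomal RNAs left out. Leaving out 1 run at a time gave 1 member higher and 2 lower each time, and 3 to 4 genes of the wider list higher and 8 to 9 lower. Depth limits VIL1, ESPN and EPS8L1 in shGRHL2, which rest on few fragments at the listed effective lengths. With 1 library per line and 1 hairpin, differences between cultures cannot be told apart from the depletion.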
